A study of Homo sapiens with 30 samples.

Results

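Imprinted genes are expressed mainly from a single parental chromosome, and 10 of them, in 9 windows of the hg19 genome, are described here by the proteins found on their DNA in HEK293T, a widely used cell line derived from human embryonic kidney. The windows, in Mb, were 101.15 to 101.35 on chromosome 14 for DLK1 and MEG3, 57.38 to 57.50 on chromosome 20 for GNAS, 57.30 to 57.37 on chromosome 19 for PEG3, 50.64 to 50.88 on chromosome 7 for GRB10 and 130.11 to 130.16 on chromosome 7 for MEST. The others were 94.27 to 94.31 on chromosome 7 for PEG10, 25.05 to 25.24 on chromosome 15 for SNRPN, 2.61 to 2.74 on chromosome 11 for KCNQ1OT1 and 144.24 to 144.40 on chromosome 6 for PLAGL1. Every peak region of the 8 deposited lists that shared a base with a window was taken, whatever its strength. This gave 19 regions of 70565 in all: 14 CTCF regions and 3 TET1 regions of cells without IAA, and 2 TET2 regions of cells with IAA.

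The cells had been edited at CTCF for auxin-inducible degradation, and all of them, controls included, carried transfected plasmids that supply the degradation system. They were compared with and without the plant hormone IAA (indole-3-acetic acid, an auxin), which triggers loss of the tagged CTCF and was given at 0.5 mM for 72 h. The cells without IAA were also taken at 72 h. For them the treatment protocol names medium without IAA, while a label names DMSO. Chromatin immunoprecipitation with sequencing used antibodies against CTCF, MBD3, TET1 and TET2. In each list the authors combined 3 samples, so no value has a replicate error, no difference between conditions was tested across cultures, and the read depth is unknown. The sources used here do not say whether the edited cells were a single clone.

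At imprinted loci, a stretch of DNA called the imprinting control region carries methylated cytosines on the chromosome from the mother or from the father, and this mark decides which copy of the nearby genes is read. CTCF is a zinc-finger protein that anchors chromatin loops and acts as an insulator, and its binding to some imprinting control regions is blocked by methylation. TET1 and TET2 oxidise methylated cytosine, and MBD3 belongs to the NuRD complex, which moves nucleosomes and removes acetyl groups from histones. The peak lists do not separate the parental chromosomes, so a region can come from either or both.

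The sequence under the regions was not read, because no hg19 genome was used here, and no region was assigned to an exon, intron or promoter. RefSeq promoter sequences of build GRCh38.p14, from 250 bases before to 50 after a gene's start, matched 6 of the 10 genes by symbol, with 28 starts, some of which overlap. DLK1, PEG3, PEG10 and KCNQ1OT1 were not matched. The matched sequences were searched on both strands for TGCCGC, the motif of ZFP57, a zinc-finger protein that keeps imprints methylated. It was found in 12 of the 28, against 16.7% of 35116 promoters of the same length, and matches in overlapping starts are counted more than once. The promoters were not matched for CG dinucleotides, which reached 49 at a GRB10 start and 43 at a GNAS start, against a median of 14 over all promoters. No enrichment is read from these shares. By gene, starts with a match were 3 of 3 for MEG3, 1 of 6 for GNAS and 1 of 5 for GRB10. They were 4 of 5 for MEST, 2 of 4 for SNRPN and 1 of 5 for PLAGL1. Printed, with the matches in capitals, is the start with the most matches in each gene that had a start with at least 2. These were picked by matches alone. The windows of SNRPN and MEST held no region and that of PLAGL1 held CTCF and TET1, and no contrast between them is read. The printed starts lie on GRCh38.p14 at chr15:24954737-24955036 (SNRPN, plus strand), chr7:130491835-130492134 (MEST, plus) and chr6:144008210-144008509 (PLAGL1, minus). The same bases in hg19 have other coordinates, which were not looked up.
SNRPN: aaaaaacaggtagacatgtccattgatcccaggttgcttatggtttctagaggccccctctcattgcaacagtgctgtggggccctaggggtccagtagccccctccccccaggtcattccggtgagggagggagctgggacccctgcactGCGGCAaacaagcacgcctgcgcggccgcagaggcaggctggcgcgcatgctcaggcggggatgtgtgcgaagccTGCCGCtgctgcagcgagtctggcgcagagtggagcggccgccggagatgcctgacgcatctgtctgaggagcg
MEST: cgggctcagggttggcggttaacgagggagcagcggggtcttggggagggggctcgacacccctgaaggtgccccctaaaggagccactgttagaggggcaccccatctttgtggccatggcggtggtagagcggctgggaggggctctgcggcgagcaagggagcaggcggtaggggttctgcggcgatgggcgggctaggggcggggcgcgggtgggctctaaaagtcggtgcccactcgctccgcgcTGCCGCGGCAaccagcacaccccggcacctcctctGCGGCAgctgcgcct
PLAGL1: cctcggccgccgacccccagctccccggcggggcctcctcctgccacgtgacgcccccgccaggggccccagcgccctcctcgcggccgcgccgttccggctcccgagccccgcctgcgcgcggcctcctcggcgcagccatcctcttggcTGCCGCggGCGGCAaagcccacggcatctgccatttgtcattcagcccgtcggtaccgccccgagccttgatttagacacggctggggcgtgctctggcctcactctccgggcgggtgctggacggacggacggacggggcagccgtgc
The printed MEST sequence held 3 TGCCGC matches, 2 of which overlap, and the SNRPN and PLAGL1 sequences held 2 each. CG dinucleotides, the sites of methylation, numbered 18 in the SNRPN sequence, 25 in MEST and 39 in PLAGL1. Each TGCCGC match holds a CG, and these were the starts richest in CG of their genes. Over all starts the number ran from 2 to 18 for SNRPN, 13 to 25 for MEST and 2 to 39 for PLAGL1, around the median of 14 over all promoters.

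CTCF regions were found in 5 of the 9 windows without IAA: 5 at GRB10, 4 at PLAGL1, 3 at GNAS and 1 each at DLK1-MEG3 and PEG10. The windows of SNRPN, KCNQ1OT1, PEG3 and MEST held no region of any of the 8 lists. Over the 1.2 Mb of all windows this was 11.7 CTCF regions per Mb, against 13.9 per Mb over chromosomes 1 to 22 and X. The chromosome lengths, here and below, were taken as the highest position in any list, with assembly gaps such as centromeres included. Within the 5 windows that held CTCF the density was 18.4 per Mb, a value raised by leaving out the empty windows. MBD3 was called in none of the 9 windows, in either condition.

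**Figure D1:**
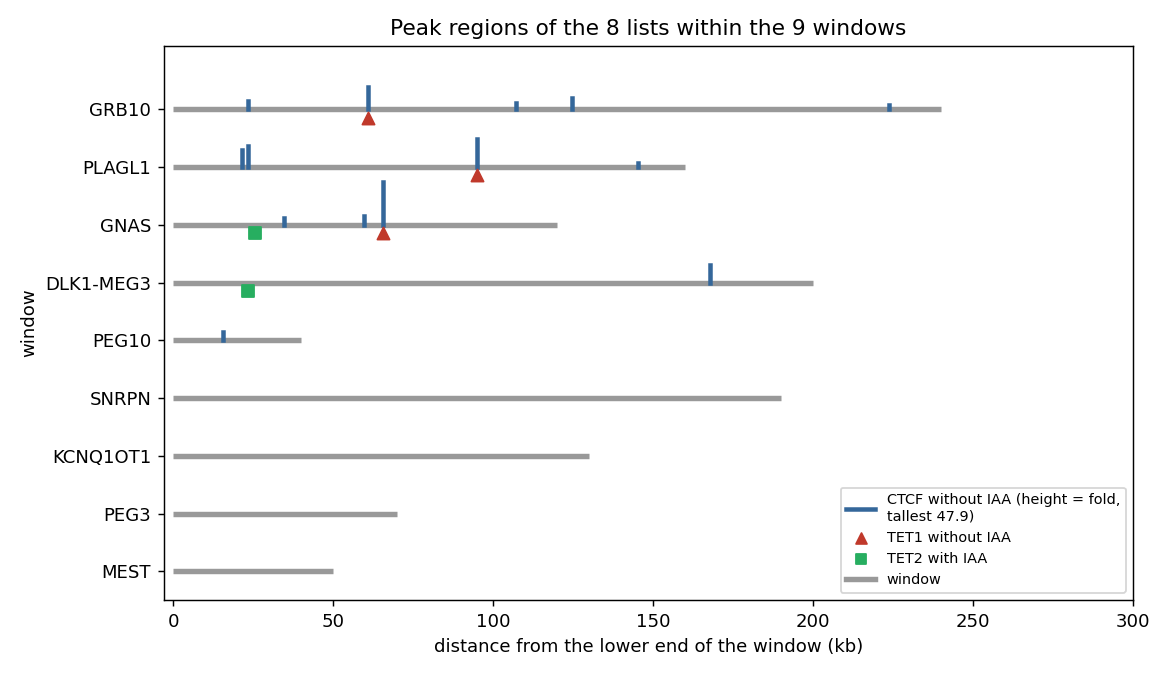
Positions of all 19 regions in the 9 windows, as the distance in kb from the lower end of each window (grey bar); blue lines are CTCF regions without IAA with height proportional to fold enrichment, red triangles TET1 without IAA and green squares TET2 with IAA. Each of the 3 TET1 regions lies under the tallest CTCF line of its window, and 4 windows are empty.

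The 14 CTCF regions ranged widely in strength. Fold enrichment is the authors' ratio of signal over the background of their peak caller, and −log10 q is the caller's significance on a log scale. Both serve here only to rank regions within a list. The median fold was 11.2 (95% order-statistic interval 6.89 to 24.6), against 13.6 for all 42925 CTCF regions, which lies inside that interval. Without the GRB10 window, which holds 5 of the 14, the median was 19.1 (7.15 to 31.7), above that of the list, which also lies inside this interval. Leaving out any other single window kept the median below that of the list. By fold, 6 of the 14 lay above the median of the list and 8 below. The lowest was 4.17 and the highest 47.9. Region widths ran from 164 to 396 bp.

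**Figure D2:**
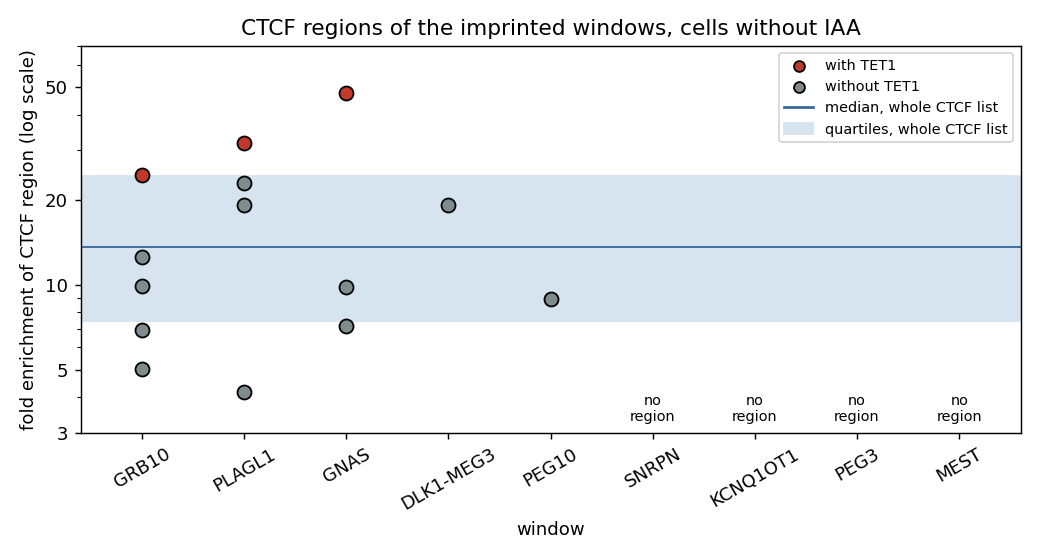
Fold enrichment (log scale) of each of the 14 CTCF regions without IAA by window, in red where TET1 was also called; the line and band are the median (13.6) and quartiles (7.43 and 24.2) of the whole CTCF list. The 3 regions with TET1 are the 3 highest, and the lowest, at PLAGL1, has a fold of 4.17.

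The GNAS window held the strongest CTCF region of all. GNAS encodes the stimulatory G protein alpha subunit and, from other promoters, several imprinted transcripts of maternal or paternal origin. The CTCF region at chr20:57445334-57445675 had a fold of 47.9 and a −log10 q of 164, rank 1198 of 42925 by fold, so that 97.2% of the list was weaker. TET1 was called there at chr20:57445430-57445601, with a fold of 9.44, above 72.5% of the 16246 TET1 regions. The other GNAS regions were of middling or low strength and carried no TET1. A region at chr20:57439523-57439760, with its summit 5.86 kb from that of the strongest, had a fold of 9.79, and one at chr20:57414558-57414826 had a fold of 7.15. These values place the strong site and its neighbour in different parts of the list, above 97.2% and above 36.7% of it.

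PLAGL1, which encodes a paternally expressed zinc-finger protein that restrains cell growth, had 3 CTCF regions above the median of the list and 1 near its bottom. The strongest, chr6:144334573-144334921, had a fold of 31.7 and a −log10 q of 152, and carried TET1 at chr6:144334633-144334826 with a fold of 7.61. A close pair lay at lower coordinates, at chr6:144261182-144261471 and chr6:144263292-144263687, with summits 2.12 kb apart and folds of 19.2 and 22.9. Neither of the pair carried TET1. The weakest of all 14 regions was chr6:144385202-144385374, with a fold of 4.17 and a −log10 q of 4.97. PLAGL1 was the only window of the 9 in which more than 1 CTCF region lay above the median fold of the list.

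The GRB10 window was the widest, at 240 kb, and held the most CTCF regions, with a single strong one. GRB10 is an adaptor protein that dampens insulin and growth factor signalling, and its parental expression differs between tissues. The region at chr7:50700591-50700953 had a fold of 24.6 and a −log10 q of 72.4, with TET1 at chr7:50700727-50700923. That TET1 region, with a fold of 5.89, was the weakest of the 3, above 31.7% of the TET1 list. The other 4 CTCF regions lay at chr7:50663289-50663494 (fold 9.86), chr7:50747034-50747263 (6.89), chr7:50764478-50764757 (12.5) and chr7:50863535-50863698 (5.05). All 4 were below the median of the list, and none carried TET1.

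DLK1-MEG3 and PEG10 each had a lone CTCF region. DLK1 encodes a paternally expressed membrane protein related to Notch ligands, and MEG3, the next gene in the RefSeq order, is a maternally expressed long non-coding RNA. The region at chr14:101317516-101317805 had a fold of 19.1, above 64.1% of the list, and a −log10 q of 96.2, above 77.8%. It ranked 6 of the 14 by fold and 3 by −log10 q, ahead of the GRB10 region that carried TET1, yet TET1 was not called there and its nearest region was 188 kb away. PEG10 is a paternally expressed gene derived from a retrotransposon. Its region at chr7:94285358-94285569 had a fold of 8.93 and a −log10 q of 18.9, with no other protein, and the next CTCF summit was 207 kb away.

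Of the 14 CTCF regions, 3 carried TET1, or 21.4% (Wilson 95% interval 7.57% to 47.6%), beside 34.4% of all CTCF regions. The interval covers counting error over regions only. All 3 TET1 regions of the windows were at CTCF, where 91.1% of the whole TET1 list was. Their summits lay 4, 4 and 11 bp from the CTCF summit at GNAS, PLAGL1 and GRB10, beside a median of 7 bp (quartiles 3 and 13) for all TET1 regions at CTCF. The share of the whole list lay inside the wide interval of the windows, and nothing is read from these shares and distances about imprinted loci.

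The 3 regions with TET1 were the 3 of highest CTCF fold among the 14. Their folds were 47.9, 31.7 and 24.6, and the highest without TET1 was 22.9, at PLAGL1. The median fold was 31.7 with TET1 and 9.79 without, and the same medians over the whole CTCF list were 28.0 and 9.35. By −log10 q the order was less clean, since the lone DLK1-MEG3 region (96.2) and the region of the PLAGL1 pair with the higher fold (83.9) stood above the GRB10 region with TET1 (72.4). When the CTCF list was divided by fold into 10 equal parts, the GNAS site fell in decile 10, the highest, where 96.7% of CTCF regions carried TET1. The PLAGL1 site was in decile 9 (85.5%) and the GRB10 site in decile 8 (65.8%). The PLAGL1 region of 22.9-fold was in decile 8 as well, and the DLK1-MEG3 region and the weaker of the PLAGL1 pair were in decile 7 (41.9%), all without TET1. The other 8 regions were in the lowest 5 deciles, where TET1 was called at 4.26% to 10.4% of CTCF regions. Averaged over the deciles of the 14 regions, the TET1 share of the list was 31.7%, inside the interval of the windows.

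**Figure D3:**
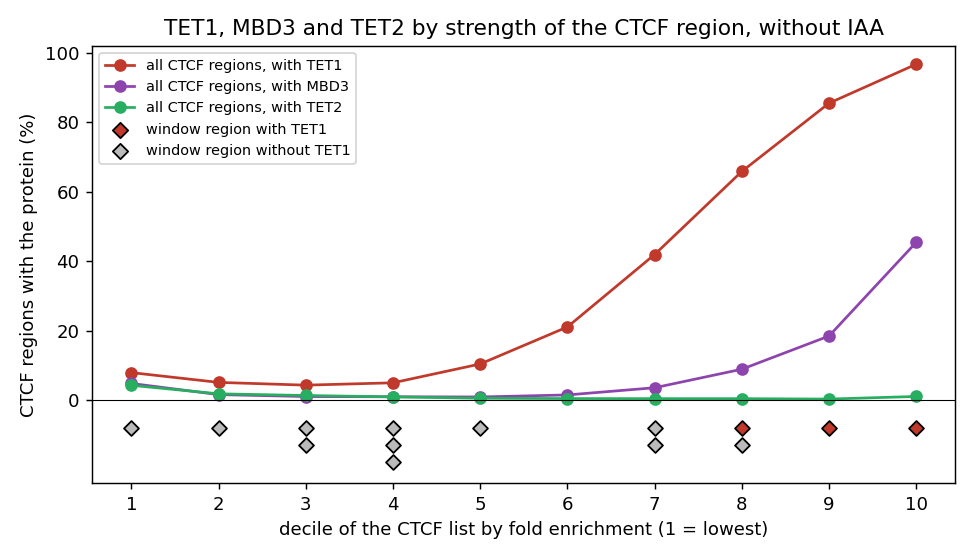
Percent of all CTCF regions without IAA that share a base with TET1, MBD3 or TET2, by decile of the list by fold; the diamonds under the axis show in which decile each of the 14 window regions lies, red with TET1 and grey without. The 3 red diamonds stand in deciles 8, 9 and 10, where the TET1 curve is at 65.8%, 85.5% and 96.7%.

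MBD3 and TET2 were called at 0 of the 14 CTCF regions. For each the Wilson interval reached 21.5%, which includes the 8.67% of all CTCF regions that carried MBD3 and the 1.1% that carried TET2, so no shortfall was detectable with 14 regions. The strongest GNAS site is the member for which MBD3 was commonest among regions of like strength: in decile 10, 45.4% of CTCF regions carried it. TET1 without MBD3, as at GNAS, was found at 51.7% of that decile. Over the whole TET1 list, 22.8% of the 14798 regions at CTCF also carried MBD3. The nearest MBD3 region without IAA lay 96.4 kb outside the MEST window, 169.7 kb outside KCNQ1OT1, 188 kb outside PLAGL1 and 207 kb outside DLK1-MEG3. It was 349 kb outside GRB10, 494 kb outside PEG10, 568 kb outside GNAS, 1135 kb outside PEG3 and 4192 kb outside SNRPN.

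With IAA, none of the 14 CTCF regions and none of the 3 TET1 regions was called. The same held for nearly all of the lists, in which 99.9% of CTCF and 99.8% of TET1 regions were no longer called, and with 63 CTCF and 325 TET1 regions left in the genome few could have been kept. The upper Wilson bound for a kept share was 21.5% for CTCF and 56.1% for TET1. The GNAS site of 47.9-fold and the PLAGL1 site of 4.17-fold were both absent from the list with IAA.

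The 2 regions called with IAA were both TET2. Both lay below the medians of that list, 4.79 for fold and 3.10 for −log10 q. At DLK1-MEG3, a TET2 region at chr14:101173221-101173545 had a fold of 4.67 and a −log10 q of 2.53. It was above 45.8% of the 3022 TET2 regions with IAA by fold and above 37.3% by −log10 q. It lay 144 kb from the window's former CTCF region, and the nearest region of any list without IAA was a CTCF region 43.2 kb away, outside the window. At GNAS, a region at chr20:57405404-57405550 had a fold of 4.20 and a −log10 q of 1.84. It was above 26.0% of the list by fold and above 18.3% by −log10 q. The nearest former CTCF region was 9.01 kb away, and the former GNAS site with TET1 was 39.8 kb from it. Neither was at a former CTCF site or at an earlier TET2 region, as was the case for most of that list: 1.16% of it was at former CTCF sites and 0.199% at TET2 regions of cells without IAA. Both regions fell out when −log10 q had to be at least 5. So did most of the TET2 list with IAA, whose median −log10 q was 3.10. The density was 1.67 per Mb in the windows and 0.955 per Mb on chromosomes 1 to 22 and X, a difference that rests on 2 regions.

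A window without CTCF lies, by construction, in a gap between CTCF regions longer than itself, so the lengths of these gaps are given as a description. SNRPN, which encodes a spliceosome protein and starts from the imprinting centre of the Prader-Willi region, lay in the longest, 1605 kb from the last CTCF region before it to the first after it. Of 42277 gaps between neighbouring CTCF regions, 22 were as long, and such gaps, assembly gaps such as centromeres not removed, made up 3.71% of the length of these chromosomes. The bounding regions were weak to middling, with folds of 4.35 and 9.58, and neither carried TET1, MBD3 or TET2. The gap around MEST, a paternally expressed gene for a hydrolase-like protein, was 463 kb, between regions of 12.5- and 7.57-fold without TET1. PEG3, a paternally expressed zinc-finger gene, lay in a gap of 320 kb between regions of 9.28- and 11.6-fold, also without TET1. Gaps at least as long as these held 15.9% of the chromosome length for MEST and 23.7% for PEG3.

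KCNQ1OT1 differed from the other empty windows in the strength of its borders. It is a paternally expressed long non-coding RNA that overlaps KCNQ1 and silences neighbouring genes on the same chromosome. Its gap was 355 kb, and gaps at least as long held 21.5% of the length, but the CTCF regions at both ends were strong. The lower, chr11:2553942-2554365, lay 55.6 kb outside the window with a fold of 34.1 and carried TET1. The upper, chr11:2909560-2909978, lay 169.6 kb outside with a fold of 31.6 and carried TET1 and MBD3. It was the only CTCF region next to any of the 9 windows at which MBD3 was called. Both border regions fell in decile 9 of the CTCF list by fold, where 85.5% of regions carried TET1 and 18.4% MBD3. Nothing is read from these borders about the locus. Windows of 50, 70, 130 and 190 kb are often empty: cut into consecutive pieces of those sizes, chromosomes 1 to 22 and X held no CTCF summit in 57.3%, 48.0%, 31.2% and 22.6% of pieces. Assembly gaps such as centromeres were not removed from the pieces, which raises these percentages. An empty window says that no region passed the authors' threshold, not that no protein was bound.

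**Figure D4:**
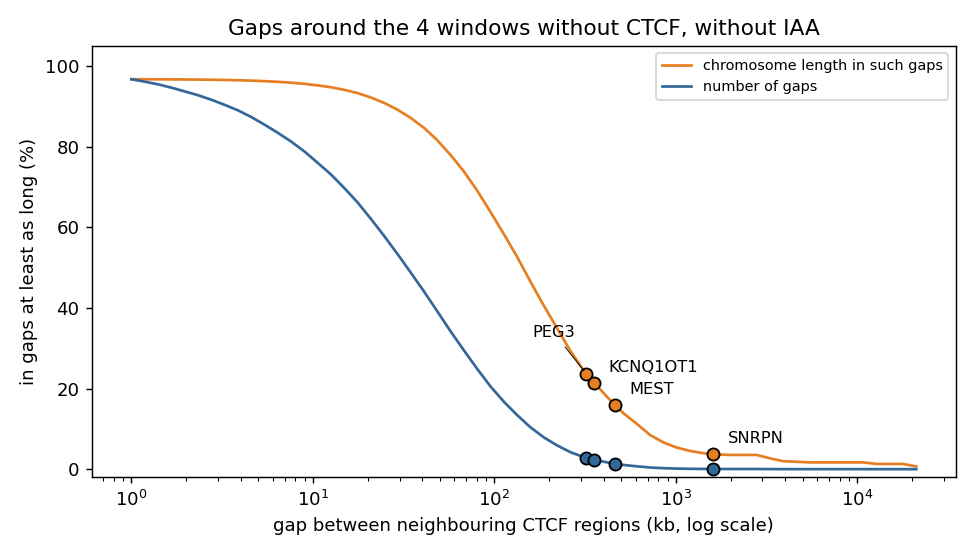
Percent of the gaps between neighbouring CTCF regions without IAA (blue) and of the length of chromosomes 1 to 22 and X (orange) that is in gaps at least as long as the distance on the x axis (log scale); points mark the gaps that contain the 4 windows without CTCF, which were picked for being empty. By length, gaps as long as those of PEG3, KCNQ1OT1, MEST and SNRPN hold 23.7%, 21.5%, 15.9% and 3.71%, and by number of gaps they are 2.83%, 2.35%, 1.36% and 0.0520%.

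The members closest to an end were the weakest PLAGL1 region, 14.6 kb inside, the PEG10 region, 15.4 kb inside, and the GRB10 region of 5.05-fold, 16.3 kb inside. Just outside, the nearest CTCF region was 16.6 kb beyond the PLAGL1 window, with a fold of 5.84 and no TET1. For DLK1-MEG3 these were a region of 16.1-fold without TET1, 17.3 kb beyond the upper end, and one of 36.2-fold with TET1, 20.0 kb below the lower end. The other windows had their nearest outer regions at 39.9 kb or more. For GRB10 these were a region of 19.2-fold with TET1, 104 kb below, and one of 12.2-fold without TET1, 255 kb above, and for GNAS regions of 16.6- and 6.56-fold, 154 and 130.4 kb away, without TET1. For PEG10 they had folds of 9.58 and 4.40, at 191 and 227 kb, and on the lower side PLAGL1 had a region of 5.32-fold, 219.8 kb away, all without TET1. Of the 18 regions next to a window, 4 carried TET1, 1 MBD3 and 0 TET2, where 34.4%, 8.67% and 1.1% of all CTCF regions did, and nothing is read from these counts.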

How the data were processed

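ChIP-seq was done with 4 antibodies and inputs, with and without IAA, giving 10 groups of 3 samples, 30 in all, grouped by their titles. The 8 peak lists were used. The 3 samples of a group were pooled before calling, per the labels and the peak names. The submitters' processing notes name MACS2 2.1.2 and Bowtie2 2.3.4 beside bedtools 2.25.0, SAMtools 1.9, FastQC 0.11.7 and build hg19, without their roles. The names of the peak lists carry TvsC, but the sources used here do not state what served as a control. The fold enrichment, a ratio, is as deposited by the authors, as is −log10 of the q-value, whose least significant value was just under a q of 0.05. The summit offset is another deposited column.

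Rows of a list that shared a base were joined into a region, with the highest fold and −log10 q and the summit of its most significant row. Regions were counted as shared, at CTCF, or kept with IAA when they had 1 bp in common. Shares have Wilson 95% intervals and medians order-statistic intervals. No test was run, since the lists have no replicates. Overlap and interval steps were tested on simulated data. Described singly are, by rule, the strongest CTCF region per window, regions with MBD3 or TET2, regions of other proteins away from CTCF, all regions with IAA and the CTCF regions bordering a window. The other CTCF regions, the deciles of fold, the gaps, the pieces and the promoter motifs were added after values were seen. The genes, windows and lists were chosen with earlier results of these data known. Alternatives were other overlap rules, thresholds, single rows, wider windows and leaving out each window. Python 3.11.15, pandas 2.3.3 and scipy 1.17.1 were used.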

Additional observations from a re-analysis of the deposited data

How the results depend on the processing

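The 11 results with a value (counts, shares, medians and distances) were recomputed under 15 alternatives each, and 159 of 165 values stayed within 1.5 times the count or within the interval of the main value (for the difference of medians, within 1 SD of the fold of the 14 regions). With windows widened by 50 kb the CTCF regions numbered 25 in place of 14. Leaving out each window gave 9 (without GRB10) to 14 CTCF regions, with medians of fold from 9.83 (without PLAGL1) to 19.1 (without GRB10), and median TET1 to CTCF distances of 4 to 7.5 bp (the last without GNAS or without PLAGL1). The regions with IAA fell from 2 to 0 at −log10 q of at least 5 and at least 10. Most TET2 regions with IAA fell below these cutoffs, since the median −log10 q of that list was 3.10. The regions with IAA fell to 1 without DLK1-MEG3 or without GNAS, so they ranged from 1 to 2 when a window was left out. The share of CTCF regions with TET1 ran from 16.7% to 24.0% and the difference of medians between CTCF regions with and without TET1 from 18.2 to 30.0 fold units over all alternatives. Shares of MBD3 and TET2 regions at CTCF and kept with IAA could not be computed, since the windows held no such region without IAA. No paired analysis was possible because the lists pool the replicates, and for the same reason no replicate could be left out. The unknown depth of the lists limits every count of weak regions.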

Other observations

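Outside the 9 windows but within 50 kb of their ends, 11 further CTCF regions and 3 TET1 regions were called without IAA, and no MBD3 or TET2 region in either condition. TET1 was called at 3 of these 11, MBD3 and TET2 at 0, where 34.4%, 8.67% and 1.1% of all CTCF regions carried them. DLK1-MEG3 had 8 of the 11, in groups on both sides. On the lower side lay 4 regions, of which the first was chr14:101112061-101112525, with a fold of 48.8, and the last the bordering region of 36.2-fold. TET1 was called at this first and last region, with folds of 13.2 and 11.6. On the upper side 4 regions of 7.24- to 16.7-fold lay together, none with TET1. The region of 48.8-fold exceeded every CTCF region inside the windows, of which the GNAS site was the highest at 47.9-fold.

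PLAGL1 had 2 of the 11. A region at chr6:144426062-144426445 had a fold of 41.9 with TET1 of 7.58-fold, and the bordering one of 5.84-fold had none. The last was the region next to PEG3, at 9.28-fold. As inside the windows, each TET1 region lay at a CTCF region, where 91.1% of the whole TET1 list was. In the flanks the CTCF regions with TET1 had folds above 24.6, which was the lowest value with TET1 inside. All of them fell in decile 10 of the CTCF list, where 96.7% of regions carried TET1, and nothing is read from them about these loci. These flanks were looked at after the values inside were known.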
